A study of Mus musculus with 12 samples.

Results

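The sites described here were the RNA positions at which cultured mouse cortical neurons carried the highest A-to-I editing when no editing factor was targeted. The sites were selected on their control reads: unedited (A) and edited (G) reads were summed per position over the 4 control libraries, and a site was kept at a total of at least 40 reads with G making up a share of at least 0.40. This rule took 558 sites. They were 3.89% of the 14340 sites with at least 40 control reads, and 46689 sites were listed in at least 1 library. Since these reads chose the sites, their levels in the controls are a description and carry no test.

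The neurons were primary cultures from C57BL/6J embryos at stage E16.5, harvested 7 days after dissection. All 5 groups received a lentivirus made in 293T cells that expressed a short hairpin RNA (shRNA) from the pGreenPuro backbone. The groups were the control hairpins shControl#1 and shControl#2 (shControl1 and shControl2 below), shAdar1 against Adar, shAdar2 against Adarb1 and shZfr against Zfr, each with 2 biological replicates. Replicate 1 of shAdar2 was split over 3 technical libraries of 1 culture, which were summed, so 12 libraries gave 10 samples. Each knockdown rests on 1 labelled hairpin and on cultures that are a mixture of cells. The design text pairs shAdar1 and shAdar2 with shControl1, and shZfr with shControl2.

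Adenosine deaminases acting on RNA (ADARs) turn adenosine into inosine within double-stranded RNA, and the sequencer reads inosine as guanosine. In the brain ADAR1, encoded by Adar, edits many positions in paired repeats of non-coding RNA, whereas ADAR2, encoded by Adarb1, is known for recoding sites in neurotransmitter receptor messages. Zfr encodes a zinc finger RNA-binding protein with a DZF domain.

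Depth set what could be seen. A sample held 110255 (shAdar2 replicate 2) to 676955 (shZfr replicate 2) reads over the listed sites. Of the 558 sites, 133 had at least 20 reads in both shAdar1 samples, 257 in both shZfr samples and 9 in both shAdar2 samples. Replicate 1 of shAdar2 alone covered 182 of them to that depth, so most values from shAdar2 below come from 1 biological sample and carry counting error only. The summed level of 6 neuronal marker genes was 2575 and 2583 CPM (gene counts per library size, TMM-adjusted) in the shAdar2 samples and 4521 to 7472 CPM in the other 8 samples. Of these genes Map2, Stmn2, Snap25 and Rbfox3 were lowest in both shAdar2 samples, while Tubb3 and Syt1 were not. All 6 markers were detected, while summed microglial markers stayed at or below 3.47 CPM and summed endothelial markers at or below 1.52 CPM. Summed markers of GABAergic neurons were at 899 and 535 CPM in shAdar2 and at 258 to 526 CPM in the other samples. Those of excitatory cortical neurons were at 700 and 780 CPM in shAdar2 and at 884 to 1580 CPM in the other samples. Single markers departed from these sums, such as Slc17a7, highest in shAdar2, and Dlx1, higher in the controls than in shAdar2. Summed astrocyte markers ranged from 540 to 2336 CPM and were highest in shControl2. Summed markers of proliferating progenitors were at 1044 and 984 CPM in shZfr and at 119 to 541 CPM in the other samples, though Hes5 among them was not highest in shZfr. Those of the oligodendrocyte lineage ranged from 70.6 to 398 CPM, highest in shControl2. Replicates 1 and 2 differed in these sums, with progenitor markers at 224 and 541 CPM in shAdar1 and 119 and 437 CPM in shAdar2. The oligodendrocyte sums were 132 and 376 CPM in shAdar1 and 80.8 and 287 CPM in shAdar2. In such bulk RNA, fewer cells of a type and less RNA per cell cannot be told apart, and the part of culture make-up in the results below was not tested. The targeted genes were lowest under their own hairpins for Adar and Zfr: Adar was at 55.1 and 51.8 CPM in shAdar1 against 118 to 207 CPM elsewhere, and Zfr at 173.2 and 173.0 CPM in shZfr against 268 to 494 CPM in shAdar1 and the controls. In shAdar2 Zfr was nearly as low as in shZfr, at 179 and 196 CPM. Adarb1 was at 48.4 and 51.6 CPM in shAdar2, and it was as low in shZfr, at 49.3 and 45.6 CPM, against 91.5 to 123 CPM in the other groups.

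The sites lay on 21 chromosomes and fell into 370 clusters, a cluster being a run of listed sites at most 10 kb apart. Of these clusters 265 held a single highly edited site and 10 held at least 5, with 64 sites between them. Most of the sites had a listed neighbour close by: the median distance to the nearest listed site was 9 bases, and 76.0% had one within 50 bases, against 78.6% of the other 13782 sites with at least 40 control reads. The clusters around them were smaller, with a median of 9 listed sites against 19 for the other sites. The pooled control level had a median of 54.3%. It was 40 to under 50% at 206 sites, 50 to under 60% at 178, 60 to under 70% at 73, 70 to under 80% at 59, 80 to under 90% at 32 and 90% or more at 10. Just inside the threshold lay 49 sites with a share of 0.40 to under 0.42, and just outside it 63 with a share of 0.38 to under 0.40. The 3 lowest members, at exactly 40% on 40 reads each, were chr1:68899093, chr2:12310961 and chr14:40219577. The 3 highest sites left out were chr1:10088617 at 39.8%, chr5:20542650 at 39.7% and chr17:33825682 at 39.7%. At a share of 0.40 or more, 74 sites had 40 to 44 control reads and 91 had 35 to 39.

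All positions are on mm9 as listed in the deposited site tables. No annotation of that build was used here, and the sources used here do not say whether positions count from 0 or 1. Genes could therefore be attached only through the distance between known recoding sites. A pair of highly edited sites on chromosome 3, 14626 bases apart, had the spacing of the R/G and Q/R sites of Gria2, which encodes a subunit of AMPA-type glutamate receptors, in GENCODE M21. It was the only pair of highly edited sites on that chromosome with this spacing, of 2 such pairs among all listed sites. On chromosome 2, 3 sites spaced by 30 and 9 bases matched the K/R, Q/R and Y/C sites of Blcap, an edited gene first described in bladder cancer. Of 23 such triplets among the listed sites on that chromosome, it was the only one that held 2 highly edited sites. These names rest on spacing, not on an annotation of the build.

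Mean levels of the highly edited sites lay under those of the controls in shAdar1 and in shZfr, a difference that the choice of the sites on control reads fixes in part. Over the 68 sites with at least 20 reads in each of the 8 samples other than shAdar2, the mean level was 67.8% in both shControl1 samples and 56.9% and 55.2% in shControl2. It was 39.8% and 35% in shAdar1, and 38.4% and 37.3% in shZfr. The means of shAdar1 (37.4% ± 3.39, SD, n = 2) and shZfr (37.8% ± 0.785, SD, n = 2) thus differed by less than the spread between the shAdar1 samples. The spread over sites was wider in shAdar1, where the lower edge of the middle of the sites (the 25th percentile) was 9.96% in replicate 1 and 12.9% in replicate 2, against 20% and 21.1% in shZfr. The 3110 other sites covered to that depth in the 8 samples had mean levels of 3.46% ± 0.0261 in shControl1, 1.98% ± 0.115 in shControl2, 1.44% ± 0.151 in shAdar1 and 1.26% ± 0.0444 in shZfr.

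**Figure D1:**
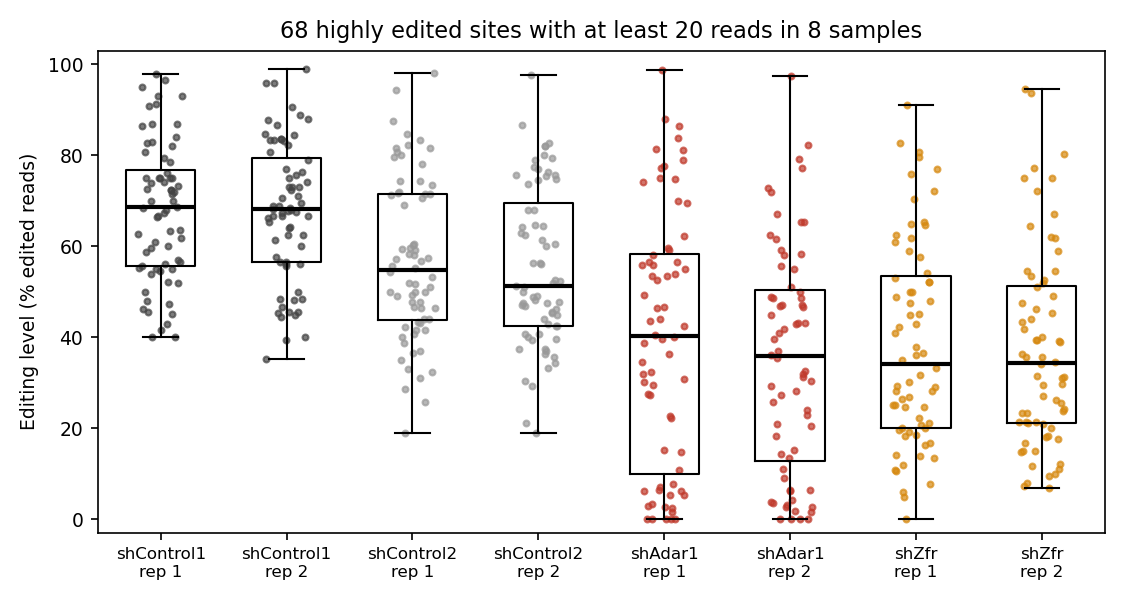
Editing level in percent of reads at the 68 highly edited sites with at least 20 reads in each of 8 samples, by sample; each point is a site, the box spans the middle of the sites with the median as a thick line, and the whiskers reach the lowest and highest site. Medians were 68.6% and 68.1% in shControl1, 54.7% and 51.2% in shControl2, 40.3% and 35.8% in shAdar1 and 34.1% and 34.3% in shZfr, and a group of sites near 0 is seen in both shAdar1 samples.

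The design asks which sites each ADAR controls and which Zfr regulates, and shAdar1 was therefore compared directly with shZfr, a comparison in which no control read enters. The paired controls of these groups differed, with a pooled level of 66.2% in both shControl1 samples and 54.6% and 52.6% in shControl2. The part of that difference in the calls between shZfr and shAdar1 or shAdar2 was not tested. Of 108 highly edited sites that could be tested, 38 were lower in shAdar1, 38 were higher in shAdar1, and 32 did not pass (edgeR quasi-likelihood test, adjusted p under 0.05 over all 782 sites tested). Over those 782 sites 35.4% were called, 17.6% lower and 17.8% higher in shAdar1, so highly edited sites were called more often than the background, at 70.4%, and as evenly in both directions. The tested sites outside the set had a median level of 5.94% against 35.2% for the members, with similar depth (a median of 170 against 160 reads over 4 samples), and the share of calls was not matched for level. The samples of the groups did not overlap at 92 of the 108 sites (85.2%), and this was so at 71.1% of all 782 sites. The count depended on the tool and on single libraries: DESeq2 called 28 lower and 10 higher, and without shZfr replicate 1 or 2 the counts were 30 and 9 or 13 and 3.

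**Figure D2:**
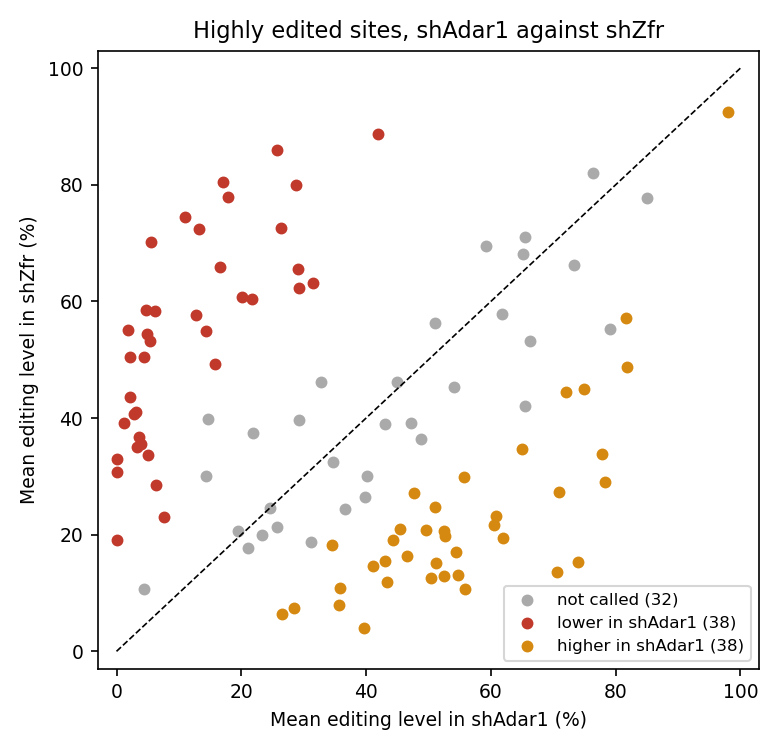
Mean editing level of 2 samples in shAdar1 (horizontal axis, percent) against shZfr (vertical axis, percent) at the 108 tested sites; the dashed line marks equal levels and colour gives the edgeR call. The 38 sites lower in shAdar1 form a column along the left, with a median of 6.27% in shAdar1, and the 38 sites higher in shAdar1 lie under the line.

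By the median, the 38 sites that were lower in shAdar1, in 32 clusters, had low levels there and kept their editing in shZfr. Single sites ranged from 0 to 41.9% in shAdar1 and from 19.2 to 88.6% in shZfr. Their median level was 6.27% in shAdar1 and 55.1% in shZfr, beside 69.0% in shControl1 and 57.2% in shControl2. As a share of the level in the paired control, the median left was 10.7% in shAdar1 and 97.5% in shZfr. The shAdar1 and shZfr values sorted the sites into this set and control reads chose the members, so these medians are a description. At chr17:63402091 the level was 7.69% and 3.45% in shAdar1 (68 reads) and 76.0% and 64.5% in shZfr (56 reads), a log2 odds ratio of −5.12 ± 0.70 (SE, edgeR adjusted p = 6.85e-05). The shControl1 samples stood at 63.6% and 62.5% there, so the level in shZfr was as high as in the controls and both shAdar1 samples were far under all others. At chr10:109623362 the level was 12.0% and 10.0% in shAdar1 against 75% and 73.8% in shZfr (−4.47 ± 0.63, edgeR adjusted p = 9.09e-05). At chr12:114196400 it was 19.4% and 14.7% against 95.5% and 65.6% (−4.08 ± 0.74, edgeR adjusted p = 0.000741), with the 2 shZfr samples wide apart but above both shAdar1 samples. The same order was seen at chr4:103309928, with 29.6% and 21.7% against 90.6% and 81.5%, and at chr17:91258437, with 14.8% and 20.8% against 80.8% and 75%.

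By the median, the 38 sites that were higher in shAdar1, in 29 clusters, kept most of their editing in shAdar1 and had low levels in shZfr. Single sites ranged from 26.6 to 98.1% in shAdar1 and from 4.03 to 92.5% in shZfr, with the Gria2 Q/R site highest in both. Their median level was 52.6% in shAdar1 and 19.3% in shZfr, beside 66.2% in shControl1 and 49.4% in shControl2. The median share left of the paired control was 82.8% in shAdar1 and 39.3% in shZfr. These medians too are a description, since the same values sorted the sites. A pair of sites 25 bases apart led this group. At chr8:68165143 the level was 78.3% and 69.6% in shAdar1 and 18.9% and 11.8% in shZfr (3.91 ± 0.64, edgeR adjusted p = 0.000317), and at chr8:68165118 it was 70.8% and 70.4% against 16.2% and 11.1% (3.87 ± 0.61, edgeR adjusted p = 0.000231). These neighbours are close enough to share reads, so they are not independent. At chr10:48964136, edited at 90.7% and 90.6% in shControl1, the level was 77.6% and 79.1% in shAdar1 and 19.1% and 39% in shZfr (3.07 ± 0.49, edgeR adjusted p = 0.000266). Its shZfr samples were wide apart, yet both were under every other sample but those of shAdar2. At chr12:25745158 the level was 83.8% and 72.0% in shAdar1 against 36.5% and 31.2% in shZfr, and at chr7:6919225 it was 53.6% and 58.1% against 0% and 21.4%, the 0 being no edited read among 20.

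The shAdar2 samples, which entered neither side of that comparison, lay apart at the same sets of sites. Values of shAdar1 and shZfr chose the sets, so only the levels of shAdar2 itself are free of that choice. Of the 38 sites lower in shAdar1, 28 had at least 20 reads in shAdar2 replicate 1, with a median level of 70.5%. Of the 38 sites higher in shAdar1, 31 were covered in shAdar2 replicate 1, with a median level of 17.9%. Reads pooled over sites let the second biological replicate be read too. At the 38 sites lower in shAdar1, the pooled level was 66.0% in shAdar2 replicate 1 (1518 reads) and 70.5% in replicate 2 (241 reads), against 12.2% and 11.1% in shAdar1 and 55.5% and 54.3% in shZfr. At the 38 sites higher in shAdar1 it was 26.2% (3789 reads) and 27.0% (549 reads) in shAdar2, against 62.4% and 55.4% in shAdar1 and 28.8% and 27.7% in shZfr. Leaving out the Gria2 sites, which hold many of these reads, the pooled level was 19.4% and 20.7% in shAdar2, 56.7% and 49.9% in shAdar1 and 20.6% and 19.2% in shZfr. The 32 sites that were not called had pooled levels of 57.3% and 52.1% in shAdar2, 47.1% and 39.3% in shAdar1 and 42.7% and 41.3% in shZfr. Both shAdar2 replicates thus had high pooled levels at the first set of sites and low ones at the second. In the controls, the pooled level at the first set was 67.4% in both shControl1 samples and 54.9% and 56.7% in shControl2. At the second set it was 73.3% and 72.7% in shControl1 and 58.1% and 55.5% in shControl2.

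The 86 sites with at least 20 reads in both shAdar1 samples, both shZfr samples and shAdar2 replicate 1 allowed the knockdowns to be set side by side. In shAdar1, 26 of the 86 sites kept at most 25% of their shControl1 level, in shAdar2 replicate 1 it was 15, and no site was in both sets. Of the 26 sites, 20 kept more than 75% of that level in shAdar2 replicate 1. Of the 15 sites, 7 kept more than 75% in shAdar1, 7 kept over 50 to 75% and 1 kept over 25 to 50%. A further 10 of the 86 kept more than 75% in both. These counts are a description, with no share over other sites taken. The shControl1 reads helped choose the sites and could be under 20 per sample. An example is chr4:103309928, with 14 reads in shControl1 replicate 2. The 15 sites low in shAdar2 replicate 1 had a median level of 7.14% there, 43.4% in shAdar1 and 14.7% in shZfr. The 26 sites low in shAdar1 had a median level of 4.80% there, 56.6% in shAdar2 replicate 1 and 40.2% in shZfr. Across the 86 sites, which lie in 61 clusters and share reads where they neighbour each other, the level in shZfr and the level in shAdar2 replicate 1 had a Pearson r of 0.84 and a Spearman rho of 0.84. For shAdar1 and shAdar2 replicate 1 the values were −0.16 and −0.18, and for shAdar1 and shZfr 0.05 and −0.02. These are descriptions of the chosen sites. The level in shZfr also followed that of its own control, with an r of 0.73 against shControl2, while the level in shAdar2 replicate 1 had an r of 0.42 against shControl1.

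**Figure D3:**
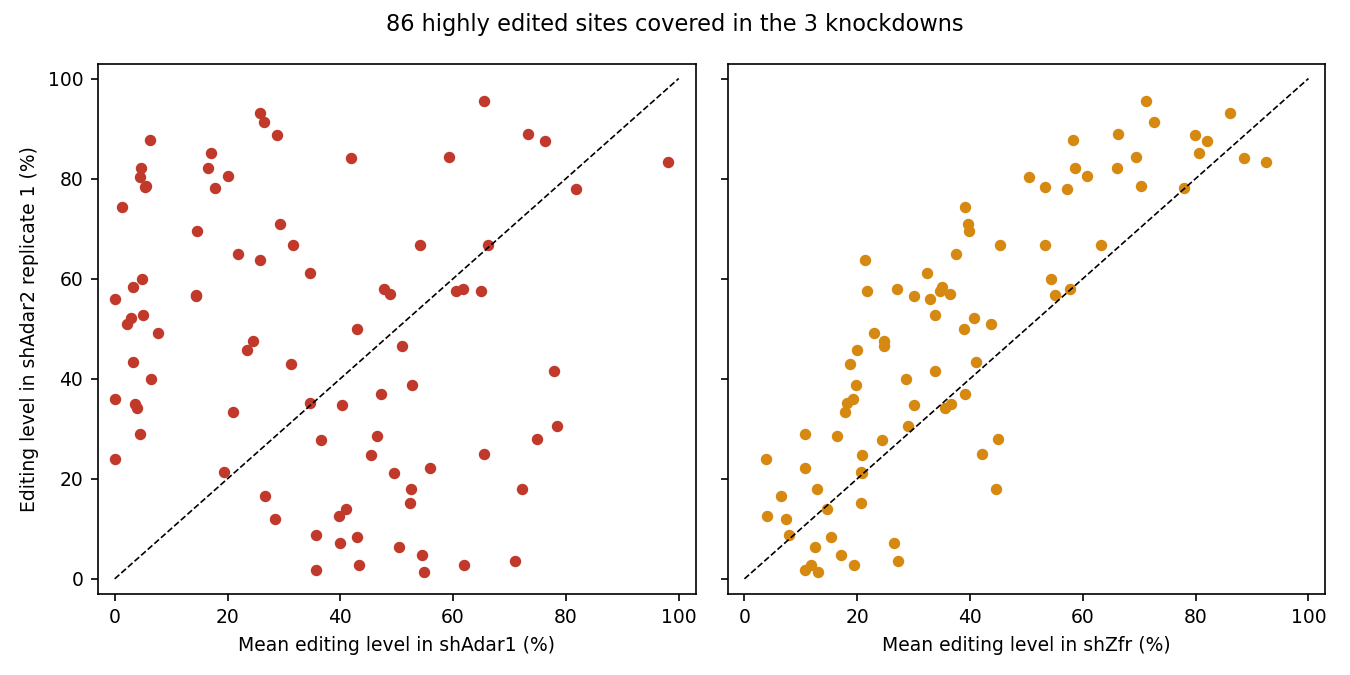
Editing level in shAdar2 replicate 1 (vertical axes, percent) against the mean level in shAdar1 (left) and in shZfr (right) at 86 highly edited sites; each point is a site and the dashed lines mark equal levels. The Pearson r was −0.16 on the left and 0.84 on the right. Most points on the right lie above the line, and how sites outside the set lie in this pair was not counted.

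The 9 sites with at least 20 reads in all 10 samples could be tested with both shAdar2 replicates. Between shAdar1 and shAdar2, 1 of the 9 was lower in shAdar1 and 5 were higher (edgeR adjusted p under 0.05 over all 89 sites tested), where 33.7% of all sites were called, 19.1% lower and 14.6% higher. Without shAdar2 replicate 1, none of these 6 calls remained. Between shAdar2 and shZfr, 5 of the 9 were called, 2 lower and 3 higher in shAdar2, where 20.3% of all 79 sites tested were called, 3 lower and 13 higher. With DESeq2 none of these 5 passed, and without either shZfr sample or without shAdar2 replicate 1 none passed with edgeR.

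Of these 9 sites, 1 was near 0 in shAdar1 alone. At chr11:98627406 the level was 2.86% and 1.49% in shAdar1 (102 reads), 50.8% and 57.1% in shAdar2 (80 reads), 48.0% and 39.4% in shZfr, and 41.7% and 62.5% in shControl1. Only the shAdar1 samples stood apart, under all 8 others. The log2 odds ratio was −5.61 ± 1.09 for shAdar1 against shAdar2 (edgeR adjusted p = 1.11e-05) and −5.09 ± 0.76 against shZfr (edgeR adjusted p = 0.000167). For shAdar2 against shZfr it was 0.54 ± 0.92 and did not pass (edgeR adjusted p = 0.68).

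At 3 other sites the level was low in shAdar2 and in shZfr. At chrX:71472201 the level was 1.36% and 3.12% in shAdar2 (179 reads), 14.0% and 12.2% in shZfr (238 reads) and 59.6% and 50.0% in shAdar1 (364 reads), beside 75% and 67.3% in shControl1 and 46.6% and 45.4% in shControl2. It was higher in shAdar1 than in shAdar2 by a log2 odds ratio of 6.03 ± 0.86 (edgeR adjusted p = 3.76e-09). It was also lower in shAdar2 than in shZfr (−3.06 ± 0.76, edgeR adjusted p = 0.00348), so the groups followed the order shAdar2, shZfr, shAdar1 with no overlap. At chr2:158210689 the level was 8.68% and 2.08% in shAdar2 (578 reads), 7.80% and 8.03% in shZfr and 40.1% and 31.4% in shAdar1, from 68.5% and 66.3% in shControl1 and 44% and 47.6% in shControl2. The difference between shAdar1 and shAdar2 was 2.84 ± 0.68 (edgeR adjusted p = 0.000347), and that between shAdar2 and shZfr was 0.03 ± 0.36 (edgeR adjusted p = 0.967). At chr17:45799898 the level was 2.72% and 8.70% in shAdar2, 16.4% and 7.32% in shZfr and 43.6% and 43.2% in shAdar1, from 60.9% and 56.0% in shControl1. The shAdar2 and shZfr samples overlapped there (−1.84 ± 0.75, edgeR adjusted p = 0.0581), and both groups lay far under shAdar1.

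The Gria2 sites were the most deeply read of the set. Editing at the R/G site changes an arginine codon next to the flip/flop region of the receptor and alters how fast the channel recovers from desensitisation. The site taken as R/G, chr3:80496208, held 2341 control reads and was edited at 68.7% and 73.0% in shControl1 and 51.7% and 40.7% in shControl2. The level was 55.8% and 43.2% in shAdar1 (1205 reads), 21.2% and 17.3% in shAdar2 (1077 reads) and 20.7% and 21.0% in shZfr (1401 reads). It was higher in shAdar1 than in shAdar2 by 2.01 ± 0.59 (edgeR adjusted p = 0.0034) and than in shZfr by 1.89 ± 0.32 (edgeR adjusted p = 0.000351). The shAdar2 and shZfr samples overlapped (−0.02 ± 0.22, edgeR adjusted p = 0.967).

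The Q/R site of Gria2 lies in the pore and its editing makes AMPA receptors impermeable to calcium. The site taken as Q/R, chr3:80510834, had the highest control level of the 9, at 98.0% and 99% in shControl1 and 98.1% and 97.6% in shControl2. It was at 98.8% and 97.4% in shAdar1, 91.1% and 93.8% in shZfr, and 83.3% and 94.3% in shAdar2. Against shAdar1 the log2 odds ratio was lower in both, by 2.94 ± 0.78 for shAdar2 (edgeR adjusted p = 0.00115) and by 2.02 ± 0.49 for shZfr (edgeR adjusted p = 0.00614). In shAdar2 the value rests on replicate 1, where 378 reads gave 83.3% (95% exact interval 79.2 to 86.9%, counting error only), and replicate 2 with 53 reads lay above both shZfr samples. The call of a lower level in shAdar2 than in shZfr (−1.15 ± 0.36, edgeR adjusted p = 0.0222) turned to 0.43 without shAdar2 replicate 1. Most of the Q/R site's editing was thus present in all 10 samples, while the R/G site of the same transcript was read at 17.3 to 21.2% in shAdar2 and shZfr.

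Blcap held 2 of the 9 sites. At the site taken as Q/R, chr2:157383876, the level was 30.8% and 18.3% in shAdar1, 47.6% and 31.8% in shAdar2 and 22.2% and 27.1% in shZfr, from 45.2% and 48.4% in shControl1 and 49.0% and 36.4% in shControl2. At the site taken as Y/C, chr2:157383885, it was 46.4% and 23.0% in shAdar1, 61.2% and 46.2% in shAdar2 and 29.3% and 35.6% in shZfr, from 56.9% and 55.7% in shControl1. Neither passed between shAdar1 and shAdar2 (−1.21 ± 0.68 and −1.30 ± 0.65, edgeR adjusted p = 0.154 and 0.113). Both were higher in shAdar2 than in shZfr (1.36 ± 0.47 and 1.59 ± 0.46, edgeR adjusted p = 0.0404 and 0.0144). These 2 sites lie 9 bases apart and share reads. The K/R site of the triplet, which was not highly edited, was at 27.8% and 32.9% in shControl1, 4.0% and 3.37% in shAdar1, 28.2% and 16.7% in shAdar2 and 12.8% and 16.7% in shZfr.

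The ninth site, chr11:75114517, stayed high in every group. It was at 91.3% and 96.0% in shControl1, 81.6% and 86.7% in shControl2, 81.4% and 65.3% in shAdar1, 88.9% and 85.7% in shAdar2 and 65.4% and 67.2% in shZfr. It was higher in shAdar2 than in shZfr (1.91 ± 0.69, edgeR adjusted p = 0.0404) and did not pass between shAdar1 and shZfr (0.37 ± 0.48, edgeR adjusted p = 0.57). This site and the Gria2 Q/R site were among 6 of the 86 sites at which shAdar1, shZfr and shAdar2 replicate 1 kept more than 75% of the paired control, a group picked after its values were seen. The other four were chr10:48969916, chr12:114196453, chr2:4016921 and chr9:66221350, whose mean levels in shAdar1 were 59.3%, 76.4%, 61.8% and 66.3%. With shAdar2 replicate 2 averaged in, on 9 and 7 reads, chr2:4016921 and chr9:66221350 stood at 60.9% and 74.7% of shControl1 in shAdar2.

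**Figure D4:**
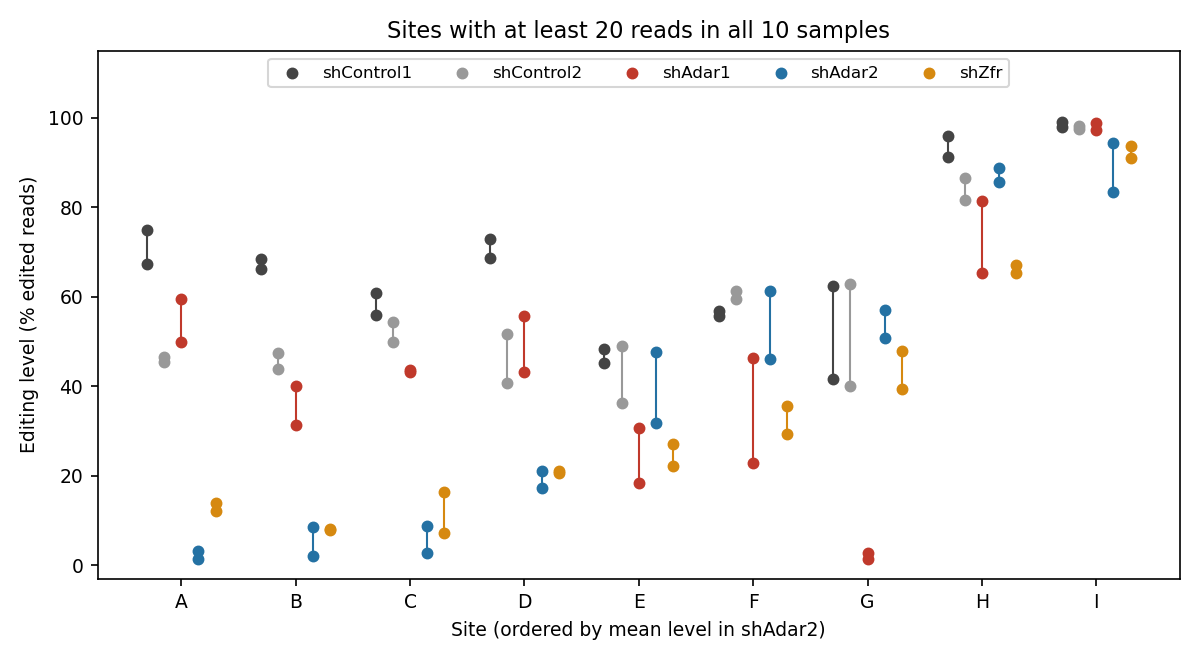
Editing level in percent at the 9 sites with at least 20 reads in all 10 samples; points are samples, a line joins the 2 samples of a group, and sites are ordered by their mean level in shAdar2. A is chrX:71472201, B chr2:158210689, C chr17:45799898, D the Gria2 R/G site, E and F the Blcap Q/R and Y/C sites, G chr11:98627406, H chr11:75114517 and I the Gria2 Q/R site; shAdar2 and shZfr are both low at A to D, and only shAdar1 is low at G.

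The sign of the difference between shAdar1 and shZfr could change between sites of one cluster. In 5 clusters, picked after the calls were known, some highly edited sites were lower in shAdar1 than in shZfr and others higher. In the closest case, at chr11:75114079 and chr11:75114080, the level was 78.9% and 65.3%, and 74.1% and 55.8%, in shAdar1, against 45.1% and 44%, and 30.2% and 39.2%, in shZfr (1.59 ± 0.45 and 1.69 ± 0.47, edgeR adjusted p = 0.0143 and 0.013). Only 6 bases further, at chr11:75114086, it was 1.47% and 10.9% in shAdar1 against 57.6% and 59.0% in shZfr (−4.13 ± 0.54). In shAdar2 replicate 1 the first of these sites was at 17.9%, the second at 57.6% and the third at 87.7%, on 65 to 67 reads each. Thus shAdar2 replicate 1 lay under all shAdar1 and shZfr samples at the first site and above them all at the third. At the second it lay above both shZfr samples and between the shAdar1 samples. These shAdar2 values come from 1 biological sample.

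In the second case the sites were 27 bases apart. At chr7:66489089 the level was 38.5% and 47.6% in shAdar1 and 16.3% and 14.5% in shZfr, and at chr7:66489116 it was 22.2% and 40.9% against 64.6% and 61.7%. In the third they were 72 bases apart, with 56.5% and 55% against 28.2% and 31.4% at chr16:6560139, and 22.6% and 35.5% against 59.0% and 72.1% at chr16:6560211. The first of that pair passed narrowly (edgeR adjusted p = 0.0467). The other 2 clusters, on chromosome 2, held sites 3131 bases apart and sites 19913 and 3364 bases apart. Of 21 pairs of tested highly edited neighbours within 50 bases, 14 had the same sign of the difference between shAdar1 and shZfr, and the changes of a pair differed by a median of 17.7 points. Sites that were not called are among them, and pairs of sites outside the set were not counted.

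**Figure D5:**
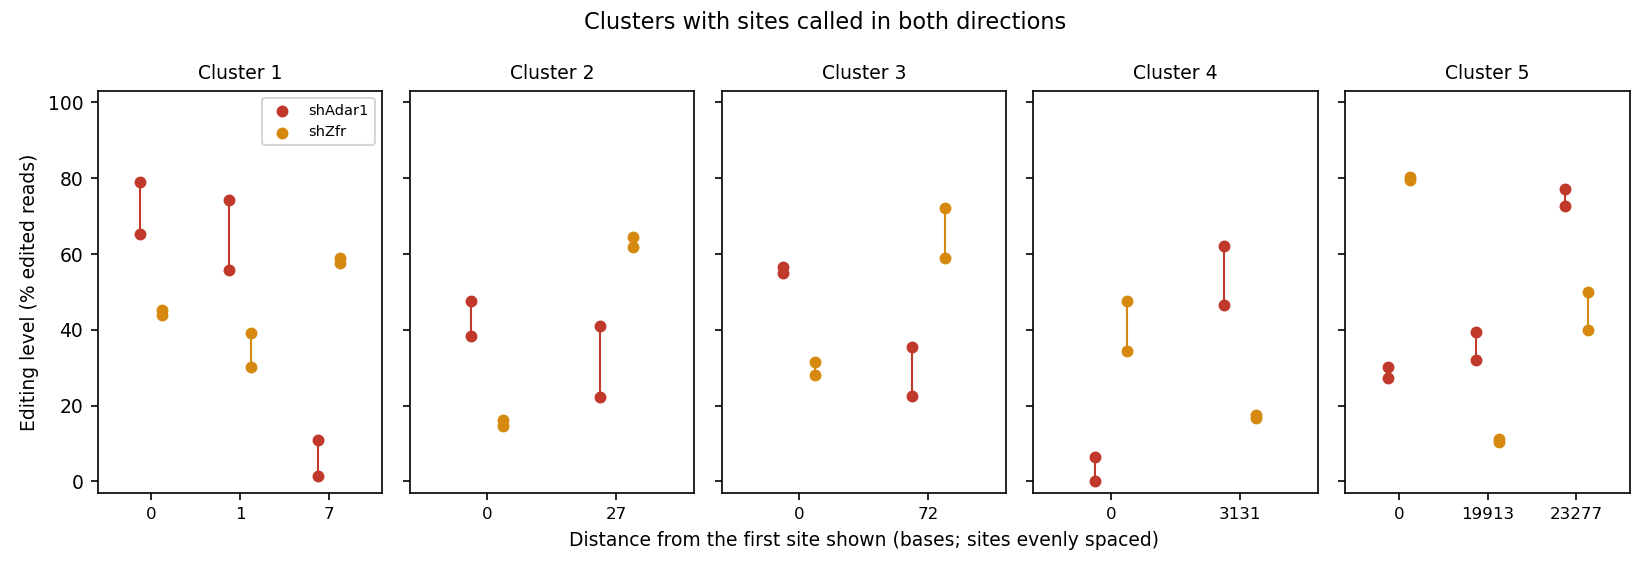
Editing level in percent in the samples of shAdar1 and shZfr at highly edited sites of 5 clusters that held calls in both directions; the horizontal axis names the distance in bases from the first site shown, with sites drawn at even spacing. Clusters 1, 2 and 3 are those on chromosomes 11, 7 and 16, and clusters 4 and 5 are on chromosome 2; in each, shAdar1 lies above shZfr at some sites and below it at others, 6 bases apart in the closest case.

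The comparisons that the design text names set each knockdown against a control whose reads chose the sites. Their values and counts are therefore a description, and nothing is read from the counts. The median share of the control level left was 58.4% in shAdar1 at 85 covered sites, 84.8% in shAdar2 at 9 and 67.6% in shZfr at 154. Both shAdar1 samples were under both shControl1 samples at 69 of the 85 sites (81.2%) and above them at 1, beside 66.5% and 3.6% of all 890 sites. The sites lower than the paired control at an edgeR adjusted p under 0.05 numbered 49 of 85 in shAdar1, where 33.6% of all 890 sites did so. They numbered 5 of 9 in shAdar2, where 16.2% of all 105 did so, and 52 of 154 in shZfr, where 12.3% of all 1312 did so. The count for shZfr was 11 without shControl2 replicate 1 and 1 with DESeq2, that for shAdar1 was 20 without shAdar1 replicate 2, and that for shAdar2 was 12 of 93 without shAdar2 replicate 2, where more sites reached the coverage.

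The control hairpins had different levels at these sites and at others. Of 88 sites with at least 20 reads in all 4 control samples, both shControl1 samples were above both shControl2 samples at 49 (55.7%) and below them at 4 (4.55%). Of the 901 sites outside the set that were covered alike, with at least 5 edited and 5 unedited reads, the shares were 52.7% and 4.22%. Over all sites of the set the pooled level was 66.2% in both shControl1 samples, against 54.6% and 52.6% in shControl2. At the Gria2 R/G site, chrX:71472201 and chr2:158210689 the shAdar1 samples were under both shControl1 samples. Against shControl2 they overlapped at the Gria2 site, lay above at chrX:71472201 and lay below at chr2:158210689.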

How the data were processed

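RNA of 12 libraries (10 samples, 5 groups of 2) was depleted of ribosomal RNA and sequenced, per the labels' protocols. The authors deposited, for each library, raw counts of A and G reads per site, an editing level as a fraction (G of A and G), and gene tables of expected counts. The submitters' processing notes name mm9, RSEM 1.2.30, STAR 2.5.4b, Trim Galore 0.4.5, SAMtools 1.4 and DESeq2 1.20.0 without saying what each did. Neither the choice of sites nor any filter on their reads is stated in the sources used here.

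The 3 technical libraries of shAdar2 replicate 1 were summed. Sites with at least 20 reads in each of the 4 samples compared, and over them at least 5 reads of each base, were tested with edgeR 4.0.16 (R 4.3.3): a quasi-likelihood test of the group effect on the odds of G, with a coverage term per sample, adjusted by Benjamini and Hochberg over all sites tested and called under 0.05. Effects are log2 odds ratios, with the SE taken from the F statistic. The test was also run on simulated data with known changes, without the minimum of reads of each base. Nothing here is read from that run. Expected counts were rounded and scaled to CPM with TMM. The labels do not say whether replicates came from separate litters, so p-values measure the spread between these samples. Reads carry no molecular identifiers, so intervals cover counting error only. Same-numbered samples of compared groups had correlations of deviations from −0.33 to 0.26, and nothing in the labels pairs them.

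The members, marker lists and tests were chosen with earlier results of these data known. Named sites were the called sites with the largest difference (up to 5 per direction, at most 2 per cluster), the extremes of the share left in each knockdown, the highest control levels and the sites next to the threshold. Alternatives covered other coverage minimums, DESeq2 1.42.0, Fisher's exact test, a replicate block, all 10 samples in 1 fit, single technical libraries, each replicate left out and other membership rules.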

Additional observations from a re-analysis of the deposited data

How the results depend on the processing

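Depth limits these results: 9 sites reached 20 reads in both shAdar2 samples. Counts moved with the coverage settings, where fewer or more sites are tested, and with the tool and the sample left out. Counts are given below as lower/higher in the first group named; the cause of other changes was not tested.

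The set held 558 sites, 1143 with 20 control reads, 189 with 80, and 369 to 411 with 1 control library left out. The counts for shAdar1 against shAdar2 (1/5) were 10/10 with a coverage minimum of 10, 0/3 with 40, 4/5 with Fisher's exact test and in the fit of all 10 samples, 0/5 with technical library 3, and 0/0 to 44/23 with 1 sample left out (44/23 of 100 sites without shAdar2 replicate 2). Those for shAdar1 against shZfr (38/38) were 85/66 with coverage 10, 8/20 with 40, 30/21 with no minimum of edited and unedited reads, 28/10 with DESeq2, and 13 to 46 lower and 3 to 45 higher with 1 sample left out. Those for shAdar2 against shZfr (2/3) were 4/7 with coverage 10, 0/0 with 40, with no minimum and with DESeq2, 1/2 in the fit of all 10 samples, 1/1, 0/0 and 0/0 with technical libraries 1, 2 and 3, and 0 to 3 lower and 0 to 5 higher with 1 sample left out.

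Sites lower in shAdar1 than in shControl1 (49) were 133 and 20 with coverage 10 and 40, and 20 to 51 with 1 sample left out. Those lower in shAdar2 than in shControl1 (5) were 17, with 1 higher, and 3 with coverage 10 and 40, and 4 to 12 with 1 sample left out. Those lower in shZfr than in shControl2 (52) were 82 and 23 with coverage 10 and 40, 27 with no minimum, 1 with DESeq2, and 11 to 45 with 1 sample left out.

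The labels do not pair the replicates. With the replicate block the counts were 1/5 for shAdar1 against shAdar2, 36/36 for shAdar1 against shZfr and 1/0 for shAdar2 against shZfr, and 42, 5 and 47 lower for the 3 comparisons with controls.

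The mean level moved with the sites averaged. With coverage 10, 40, pooled reads and 1 site per cluster it was 64.9, 69.5, 70.8 and 65.3% in shControl1. It was 52.6, 54.3 and 52.6% in shControl2 with coverage 10, 40 and 1 site per cluster. In shAdar1 it was 43.5, 44.7 and 31.1% with coverage 40, pooled reads and 1 site per cluster, in shZfr 31.3 and 35.8% with coverage 40 and 1 site per cluster, and in shAdar2 45.4, 37.8 and 32.9% with coverage 10, 40 and pooled reads. With 1 sample left out it ranged from 67.2 to 67.3% in shControl1, 55.2 to 56.7% in shControl2, 34.5 to 39.9% in shAdar1, 38.5 to 47.1% in shAdar2 and 37.7 to 38.1% in shZfr.

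Of 1235 refits of single named sites, 1022 kept the side of the threshold, including any that changed sign without a call in either fit. Another 183 lost the call, 29 gained one and 1 changed sign with a call in the main fit or the refit. That 1 was the Gria2 Q/R site in shAdar2 against shZfr. Its log2 odds ratio ranged from −1.44 to 0.43 with 1 sample left out and was 0.43 without shAdar2 replicate 1.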
